A study of Mus musculus with 40 samples.

Results

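The Hox genes of the mouse genome lie in 4 clusters, Hoxa on chromosome 6, Hoxb on chromosome 11, Hoxc on chromosome 15 and Hoxd on chromosome 2. The genes described here were chosen by name, as the protein-coding genes whose symbol is Hoxa, Hoxb, Hoxc or Hoxd followed only by digits, and 38 such genes of the 53465 genes in the deposited count table are reported. The naming rule used no measured value, but the genes were chosen with earlier results of these data known. Organoids of mouse bladder urothelium were used, and they were wild type (WT) or carried the label of a double Kmt2c and Kmt2d knockout (dKO). Both genotypes received either the solvent DMSO or MI-503 at 1 µM, and RNA was taken after 4 days. All groups shared 1 culture medium with B27, conditioned Noggin and R-spondin media, EGF, the ROCK inhibitor Y-27632 and the TGF-beta receptor inhibitor A83-01. Each of the 4 combinations of genotype and treatment was read in 2 polyA RNA-seq libraries. The labels leave unsaid whether the 2 libraries of a group are separate cultures or lines, so p-values describe the spread among these 8 libraries, which may be technical. The sources used here do not give the allele, the driver of the deletion, the number of clones or the age of the donor mice.

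Hox proteins are homeodomain transcription factors that give cells along the body axis their positional identity. Within a cluster, genes at the 3' end (low paralog numbers) are used in anterior regions and genes at the 5' end (high numbers) in posterior regions, and genes of the same number in different clusters are paralogs that arose by cluster duplication. The bladder forms from the cloacal region at the posterior end of the gut, a territory of Hoxa13 and Hoxd13. KMT2A, the vertebrate trithorax protein, maintains active Hox genes by methylating histone H3 lysine 4 at their promoters, needs menin (Men1) for part of its binding, and reads unmethylated CpG-rich DNA through its CXXC domain. Polycomb complexes maintain the silent state of the same clusters. KMT2C and KMT2D methylate the same lysine mainly at enhancers. MI-503 keeps menin from binding KMT2A, so the design sets loss of the enhancer enzymes against block of the menin complex on the same genes.

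The 250 bases before the RefSeq start (build GRCm38.p6) are shown for 4 members on which the MI-503 results turn, with every CpG in capitals, since CpG is the letter pair that the CXXC domain reads. Hoxa13, Hoxd13 and Hoxa11 fell with MI-503 in WT, while Hoxa3 rose. All 4 runs are written 5′ to 3′ on the strand of the gene.
Hoxa13, chr6:52260881-52261130, minus strand: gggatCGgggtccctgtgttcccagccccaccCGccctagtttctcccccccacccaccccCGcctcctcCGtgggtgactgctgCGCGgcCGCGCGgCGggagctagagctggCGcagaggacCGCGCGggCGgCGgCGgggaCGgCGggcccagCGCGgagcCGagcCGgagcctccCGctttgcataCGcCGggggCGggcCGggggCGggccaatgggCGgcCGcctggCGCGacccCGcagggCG
Hoxd13, chr2:74667975-74668224, plus strand: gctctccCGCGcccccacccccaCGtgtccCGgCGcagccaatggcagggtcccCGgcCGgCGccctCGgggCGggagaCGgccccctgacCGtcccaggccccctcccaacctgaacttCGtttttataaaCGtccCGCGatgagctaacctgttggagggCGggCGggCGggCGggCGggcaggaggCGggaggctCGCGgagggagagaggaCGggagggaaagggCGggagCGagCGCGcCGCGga
Hoxa11, chr6:52245811-52246060, minus strand: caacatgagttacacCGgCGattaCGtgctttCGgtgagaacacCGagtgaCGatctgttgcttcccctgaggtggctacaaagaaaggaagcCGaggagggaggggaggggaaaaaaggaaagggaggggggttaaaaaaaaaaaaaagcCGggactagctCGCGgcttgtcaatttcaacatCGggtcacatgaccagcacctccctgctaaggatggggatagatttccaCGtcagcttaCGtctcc
Hoxa3, chr6:52213068-52213317, minus strand: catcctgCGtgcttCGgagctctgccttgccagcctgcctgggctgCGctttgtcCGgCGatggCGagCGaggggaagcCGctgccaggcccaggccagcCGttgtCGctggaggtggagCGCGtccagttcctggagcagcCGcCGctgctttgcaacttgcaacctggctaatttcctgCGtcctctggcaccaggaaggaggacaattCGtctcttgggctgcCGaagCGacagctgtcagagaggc

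Hoxa13 held 35 CpG in this window, Hoxd13 31, Hoxa3 18 and Hoxa11 13. The Hoxa3 window lies between Hoxa6 and Hoxa7, before the start of a RefSeq span that covers Hoxa4, Hoxa5 and Hoxa6. Whether the organoids use this start was not tested. The RefSeq promoter table had 24 entries for 22 of the 38 members, with a median of 12.5 CpG (range 2 to 35) against a median of 6 over all 32851 promoters in the table, and a median G+C content of 58.6% against 52.4%. The Hoxd13 window held TATAAA, the TATA box, on both strands in overlapping matches. TATAAA stood in 4 of the 24 Hox entries and in 12.4% of all promoters, counting both strands. TGATNNAT, the joint site of PBX with Hox proteins, stood in 4 entries (7.68% of all promoters). TGACAG, the MEIS core, stood in 2 (15.9%), and AGGTCA, the half-site of nuclear receptors, in 6 (14%). Hoxa13 and Hoxd13 held the most CpG of the 24 entries, and the window of Hoxa9, which also fell with MI-503, held 3. Hoxb9 had no entry. Whether CpG content bears on the MI-503 results was not tested.

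The libraries held 58113705 to 68571176 counts. Values below are CPM, counts relative to a library's total scaled by trimmed mean of M values (TMM), and p-values come from edgeR's quasi-likelihood test with Benjamini-Hochberg adjustment over the 16921 genes that passed a filter on low counts. A gene is called risen or fallen where the adjusted p is under 0.05. Kmt2c measured 110 and 111 CPM in WT DMSO and 55.2 and 52.3 in dKO DMSO, and Kmt2d 95.4 and 86.5 against 111 and 133, so the labelled double knockout shows in these whole-gene counts as less Kmt2c and not as less Kmt2d. A deleted exon need not show in counts of the whole gene. The 2 WT DMSO libraries stand apart from the other 6: a list of 15 genes of endoplasmic reticulum chaperones and folding enzymes took 4.04 to 4.36% of their scaled counts and 0.382 to 0.507% elsewhere. Without TMM the median over all genes moves by 0.23 on the log2 scale in dKO against WT in DMSO, by 0.17 for MI-503 in WT and by -0.16 for the difference between the genotypes. The part of this in the Hox results was not tested, and each Hox call lost or gained with another scaling is named below. The 18 urothelial markers summed to 12504 to 13693 CPM in WT DMSO and to 18340 to 23220 CPM in the other libraries. This sum rested mainly on Krt5, Krt14, Krt19 and Krt7, and the markers did not move together. Of 17 tested, 9 rose and 5 fell in dKO in DMSO. With MI-503, 6 rose and 8 fell in WT, and 3 rose and 8 fell in dKO. Over all genes tested, 29.6% rose and 35.8% fell in dKO in DMSO. The shares with MI-503 were 35.2% risen and 33.7% fallen in WT, and 29.1% and 26.5% in dKO. Of 13 fibroblast and smooth muscle markers, Col1a2, Dcn and Lum were at 0 in all 8 libraries. The list summed to 5.01 to 6.23 CPM in WT DMSO, 66.3 to 71.9 in WT MI-503, 8.34 to 9.34 in dKO DMSO and 29.3 to 31.0 in dKO MI-503 and rested mainly on Vim, Acta2 and Pdgfra. Of the 7 tested, 3 rose and 2 fell in dKO in DMSO (median log2 fold change -0.24). In DMSO Pdgfra was higher in dKO, at 3.44 and 3.95 CPM against 0.928 and 1.24 in WT. Acta2 was lower in dKO in DMSO, at 1.11 and 0.869 CPM against 2.77 and 3.64 in WT. The 5 immune markers rested almost wholly on Cd68 (160 to 166 CPM in WT MI-503, 13.1 to 69.8 elsewhere). The 5 endothelial markers stayed at or under 0.368 CPM in sum, and the 6 neural markers at or under 29.4 CPM, mainly Tubb3. The part of these marker shifts in the Hox results was not tested, and in bulk RNA fewer cells of a type and less RNA per cell cannot be told apart.

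Of the 38 genes, 31 passed the filter. Hoxc11, Hoxc12 and Hoxd12 had no read in any library, Hoxb1 had 4 counts over all 8 libraries, Hoxc10 3, Hoxd1 6 and Hoxc5 33. In single libraries a count of 0 allows up to 3 counts, which is 0.0421 to 0.0501 CPM. Hoxa was read from Hoxa2 to Hoxa13, and its 10 members summed to 217 and 211 CPM in WT DMSO, 127 and 123 in WT MI-503, 321 and 326 in dKO DMSO, and 243 and 235 in dKO MI-503. Hoxb summed to 76.5 and 76.2, 56.0 and 54.4, 129 and 137, and 107 and 103 CPM in the same order of groups, and Hoxd to 50.4 and 52.7, 38.5 and 39.0, 65.6 and 64.3, and 46.2 and 49.0. Hoxc summed to 2.26 and 2.86, 1.01 and 0.819, 2.03 and 1.92, and 2.11 and 1.75 CPM. Each of the Hoxa, Hoxb and Hoxd sums was lowest in both WT MI-503 libraries and highest in both dKO DMSO libraries. Levels of different genes are not compared with each other, because transcript lengths were not used here.

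**Figure D1:**
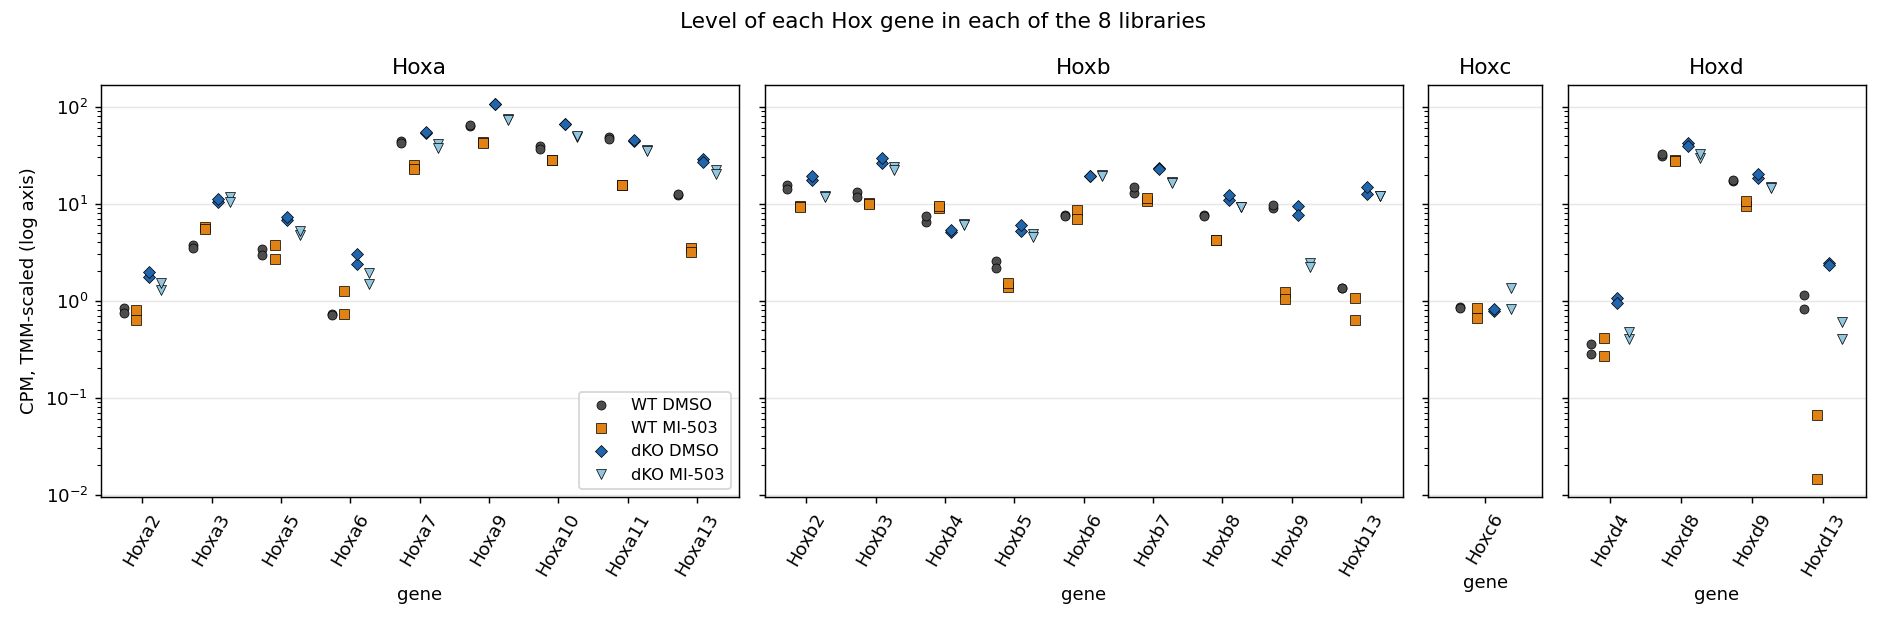
Level of each of the 23 Hox genes that reached a mean of 1 CPM in at least 1 group, in CPM scaled by TMM on a log axis, with 1 point for each of the 8 libraries and panels by cluster in paralog order. Replicate points lie close together for most genes, and the dKO DMSO points are highest for most Hoxa and Hoxb genes. The WT MI-503 points of Hoxb9, Hoxa13, Hoxa11 and Hoxd13 lie below all others of the same gene. For Hoxb9, Hoxa11 and Hoxd13 the dKO MI-503 points also lie below those of both DMSO groups.

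In DMSO, Hox genes were mostly higher in the organoids labelled dKO. Of the 31 tested, 19 rose and 2 fell, while 29.6% of all genes tested rose and 35.8% fell. The share of calls that were higher, over all genes, was 45.3% and rose to 61.7% with scaling by library size only, under which 21 Hox genes rose and 1 fell. Hoxa11 (0.15, adjusted p = 0.0351) and Hoxd9 (0.40, adjusted p = 0.000726) were the genes gained, and Hoxd9 was also called with RLE size factors (0.21, adjusted p = 0.0353). Hoxd9 was called as well with no filter, a minimum count of 50 or only the groups compared (0.25 to 0.27). The median log2 fold change was 0.73 over the tested Hox genes and -0.05 over all genes. Rises of at least 2-fold were called for 12 of the 31 Hox genes and for 1773 of all 16921 genes tested. The rise ran through Hoxa (8 of 10 rose, median 0.98) and Hoxb (7 of 9 rose, 1 fell, median 0.73). In Hoxd 3 of 7 tested rose (median 0.61), and in Hoxc 1 rose and 1 fell of 5 tested (median -0.09). The position in the cluster showed little relation to the size: Spearman's rho of log2 fold change with paralog number was -0.10 over 31 genes, as a description over genes that share libraries and clusters. Of the 20 members with a mean of at least 1 CPM over all 8 libraries, 16 rose and 1 fell.

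Hoxb13, the 5'-most gene of its cluster and a marker of hindgut and prostate identity, changed most among these genes. It measured 1.33 and 1.34 CPM in WT DMSO, 1.07 and 0.635 in WT MI-503, 12.5 and 14.7 in dKO DMSO, and 12.1 and 11.9 in dKO MI-503. All 4 dKO libraries lay above all 4 WT libraries, whichever treatment they had (log2 fold change 3.34, SE 0.155, adjusted p = 3.25e-10 in DMSO). Hoxa6, a central gene, measured 0.733 and 0.711 CPM in WT DMSO and 2.41 and 3.03 in dKO DMSO (1.91, SE 0.251, adjusted p = 1.27e-05). Hoxa3, which patterns pharyngeal structures in the embryo, measured 3.76 and 3.49 CPM against 10.3 and 11.3 (1.58, SE 0.105, adjusted p = 1.32e-08). Hoxb6, a central gene of the trunk, measured 7.70 and 7.39 CPM against 19.1 and 19.4 (1.35, SE 0.0946, adjusted p = 2.15e-08). These genes were named for their large changes in DMSO. That the 2 genotypes did not overlap there in any of them adds no further support.

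Among the posterior genes, Hoxd13, which patterns the distal limb and the urogenital outlet, measured 1.16 and 0.827 CPM in WT DMSO and 2.47 and 2.33 in dKO DMSO (log2 fold change 1.27, SE 0.238, adjusted p = 0.000324). Hoxa13, its counterpart in Hoxa, measured 12.2 and 12.7 CPM against 28.8 and 27.0 (1.17, SE 0.0794, adjusted p = 1.65e-08). Hoxa9 and Hoxa10, known as KMT2A targets in leukaemia, rose from 63.2 and 64.4 to 106 and 108 CPM and from 39.0 and 36.9 to 66.8 and 66.7 CPM. Hoxa11, a gene of the kidney and uterus that lies between Hoxa10 and Hoxa13, measured 49.1 and 46.6 CPM in WT DMSO and 44.7 and 45.8 in dKO DMSO (-0.08, SE 0.0566, adjusted p = 0.222), a value that turned positive and passed with library size only, as given above. Hoxb9 measured 9.08 and 9.66 against 9.37 and 7.71 CPM (-0.14, SE 0.112, adjusted p = 0.309).

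The sparsely read Hoxd4 rose from 22 and 17 counts in WT DMSO to 71 and 67 in dKO DMSO (log2 fold change 1.65, SE 0.303, adjusted p = 0.000282). Its RefSeq span lies within that of Hoxd3, so reads of the 2 genes may not be separated. Hoxa2, a gene of the hindbrain and branchial arches, rose by 1.23, Hoxa5 by 1.15, Hoxb3 by 1.18 and Hoxb5 by 1.26 on the log2 scale. Hoxb7 rose by 0.73, Hoxb8 by 0.60, Hoxd8 by 0.35, Hoxb2 by 0.31 and Hoxa7 by 0.30. The Hoxb2 call was lost without WT DMSO replicate 2 (0.24, adjusted p = 0.0586) and without dKO DMSO replicate 2 (0.23, adjusted p = 0.0564). Hoxb4 was lower, at 6.41 and 7.54 CPM in WT DMSO and 5.08 and 5.34 in dKO DMSO (-0.42, adjusted p = 0.00281), a call that ended with scaling by library size only (-0.19, adjusted p = 0.121). Hoxa4, Hoxc4, Hoxc6, Hoxc8, Hoxd3, Hoxd9, Hoxd10 and Hoxd11 did not pass, at log2 fold changes of -0.40 to 0.77.

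**Figure D2:**
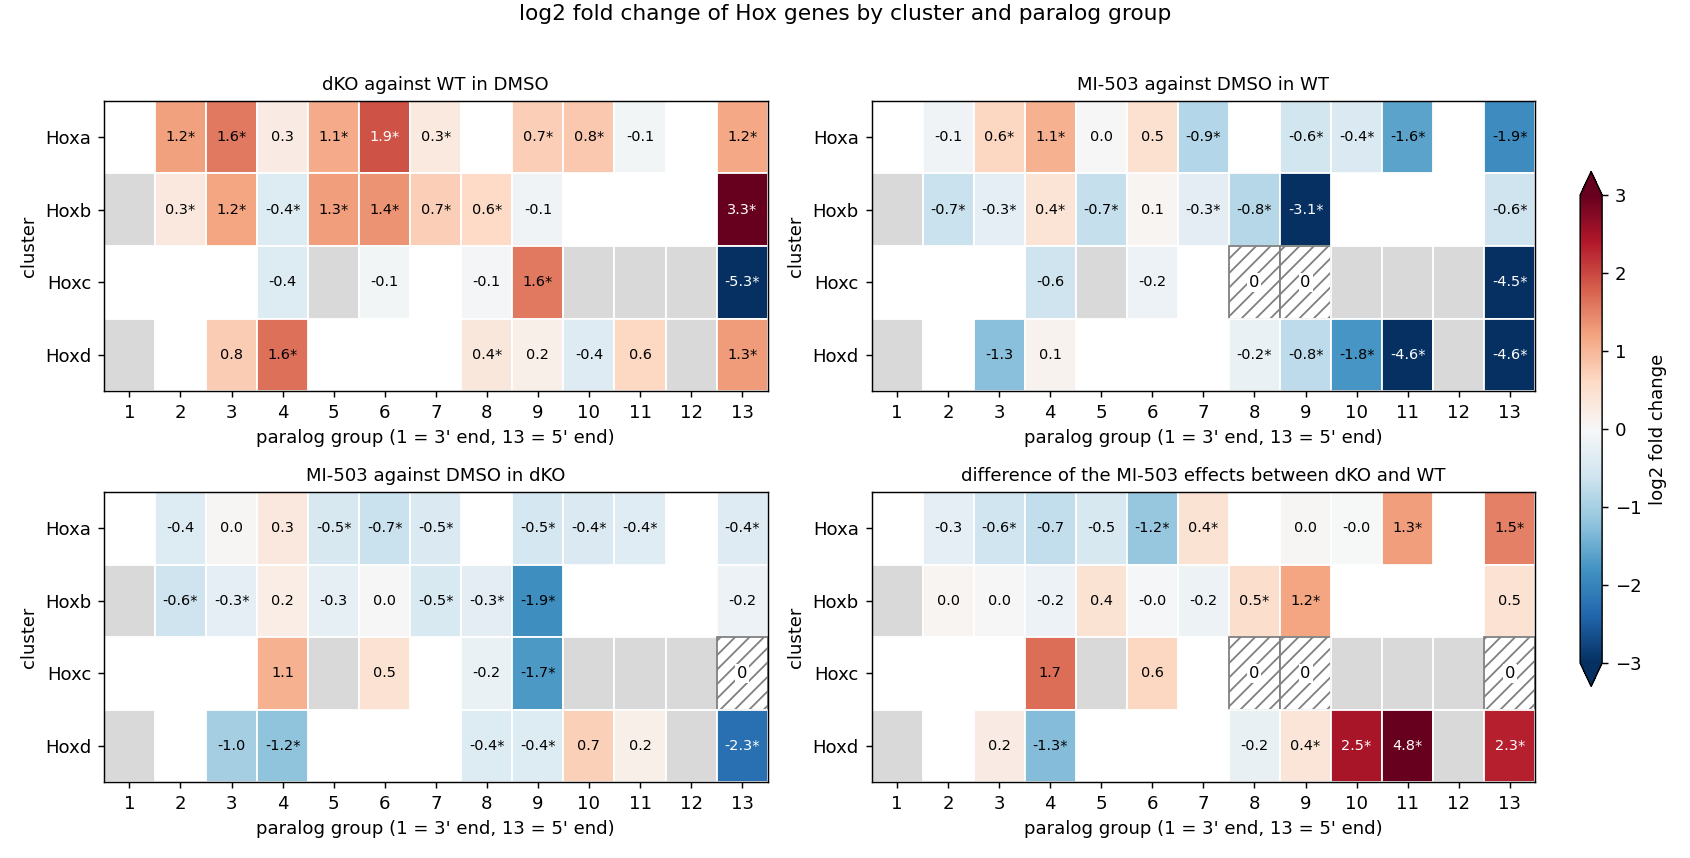
log2 fold change of the Hox genes by cluster (rows) and paralog group (columns) in 4 comparisons, with an asterisk where the adjusted p of edgeR is under 0.05. Red is higher and blue is lower in the first-named group, grey marks genes left out by the filter on low counts, hatched cells marked 0 are genes with no read in a group of that comparison, for which no fitted value is shown, and blank cells hold no gene described here. In DMSO the red cells cover Hoxa and Hoxb, and with MI-503 in WT the darkest blue cells lie in paralog groups 9 to 13.

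With MI-503 in WT organoids, most tested Hox genes fell, and 8 of the 9 that fell at least 2-fold were posterior, the other being the central Hoxc8. Of the 31 tested, 20 fell and 3 rose, while 33.7% of all genes tested fell and 35.2% rose. The median was -0.63 over the tested Hox genes and 0.03 over all genes. Falls of at least 2-fold were called for 2025 of all 16921 genes tested. Of the posterior genes, paralog groups 9 to 13, 12 of 12 tested fell, with a median log2 fold change of -1.83, and 8 fell at least 2-fold. Of the central genes, groups 4 to 8, 6 fell and 2 rose of 14 (median -0.18), and of the anterior genes, groups 1 to 3, 2 fell and 1 rose of 5 (median -0.29). Setting the 2 genes without a read in WT MI-503, Hoxc8 and Hoxc9, at the bound that a floor of 3 counts over the group gives left the posterior median at -1.83 and the central median at -0.18. Some posterior genes could pass the filter only where they are high, so the 20 members with a mean of at least 1 CPM over all libraries are given apart: 7 of 7 posterior genes fell (median -0.79), as did 5 of 9 central genes (median -0.19) and 2 of 4 anterior genes (median -0.22). Among these 20, falls of at least 2-fold were called for 3 posterior, 0 central and 0 anterior genes. Spearman's rho of log2 fold change with paralog number was -0.63 over all 31 genes, -0.81 over the 10 of Hoxa and -0.42 over the 9 of Hoxb, again as a description.

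Hoxd13 fell furthest among the genes that reached a mean of 1 CPM in at least 1 group. It had 71 and 50 counts in WT DMSO and 1 and 4 in WT MI-503, or 1.16 and 0.827 against 0.0146 and 0.0668 CPM (log2 fold change -4.60, SE 0.485, adjusted p = 1.12e-06). Hoxb9, a gene of the thoracic region, fell from 9.08 and 9.66 CPM to 1.21 and 1.04 (-3.05, SE 0.145, adjusted p = 2.69e-10). Hoxa13, whose CpG-rich promoter is printed above, fell from 12.2 and 12.7 to 3.51 and 3.16 CPM (-1.90, SE 0.0947, adjusted p = 4.59e-10). In each of these the treated libraries lay below both untreated ones by several times the spread between replicates. These genes were named for their large falls, so this separation adds no further support. Hoxa11 fell from 49.1 and 46.6 to 15.6 and 15.7 CPM (-1.61, SE 0.0604, adjusted p = 2.67e-11). Among the central genes, Hoxa7 fell from 44.8 and 42.5 to 24.9 and 22.6 CPM (-0.88) and Hoxb8 from 7.70 and 7.51 to 4.23 and 4.21 CPM (-0.85).

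The fall was shallower in Hoxa9 (log2 fold change -0.57, SE 0.0493) and Hoxa10 (-0.42, SE 0.056), which stand between Hoxa7 and Hoxa11 in the cluster. Hoxd9 fell by 0.79, Hoxb5 by 0.72 and Hoxb2 by 0.68 on the log2 scale. Smaller falls rested on the scaling or on 1 library: with library size only, Hoxb13 (-0.63, adjusted p = 0.0202) went to an adjusted p of 0.0852, Hoxb7 (-0.32, adjusted p = 0.00344) to 0.1255, Hoxb3 (-0.29, adjusted p = 0.00974) to 0.257 and Hoxd8 (-0.19, adjusted p = 0.0244) to 0.871. Hoxb13 was also not called without WT DMSO replicate 1 (adjusted p = 0.059), WT DMSO replicate 2 (adjusted p = 0.06) or WT MI-503 replicate 2 (-0.34, adjusted p = 0.185). Hoxb3 was not called without WT DMSO replicate 1 (adjusted p = 0.105), and Hoxb7 without WT DMSO replicate 2 (adjusted p = 0.05003). Hoxd8 was also not called with RLE size factors (adjusted p = 0.0542), DESeq2 (adjusted p = 0.0804), no filter (adjusted p = 0.248), a minimum count of 50 (adjusted p = 0.128) and the loss of WT DMSO replicate 2 or either WT MI-503 library (adjusted p from 0.064 to 0.124). The sparsely read Hoxd10 fell from 15 and 21 counts to 6 and 5 (-1.76, adjusted p = 0.00707), with an adjusted p of 0.0633 without WT DMSO replicate 2.

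The 3 genes that rose with MI-503 in WT were Hoxa3, Hoxa4 and Hoxb4. Hoxa3 went from 3.76 and 3.49 to 5.76 and 5.50 CPM (log2 fold change 0.64, SE 0.111, adjusted p = 0.000152), and Hoxb4, known for its role in blood stem cells, from 6.41 and 7.54 to 9.10 and 9.36 CPM (0.40, SE 0.1, adjusted p = 0.00259). Hoxa4 went from 21 and 14 to 43 and 34 counts (1.06, adjusted p = 0.0129), and lost the call in DESeq2 (1.09, adjusted p = 0.0563), without WT DMSO replicate 2 (0.80, adjusted p = 0.104) and without WT MI-503 replicate 1 (0.98, adjusted p = 0.0707). The RefSeq spans of Hoxa4, Hoxa5 and Hoxa6 lie within that of Hoxa3, and the span of Hoxb4 within that of Hoxb3. Spans of 19 of the 38 members overlap that of another gene, and the sources used here do not give the strand setting of the counting, so a part of these counts may belong to the overlapping gene. Hoxa2, Hoxa5, Hoxa6, Hoxb6, Hoxc4, Hoxc6, Hoxd3 and Hoxd4 did not pass, at log2 fold changes of -1.25 to 0.48.

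With MI-503 in the organoids labelled dKO, more than 1 in 2 of the tested Hox genes fell. Of the 31 tested genes 17 fell and 0 rose in edgeR, while 26.5% of all genes tested fell and 29.1% rose. At an unadjusted p under 0.05 in edgeR 20 were lower and 0 higher, and DESeq2 called 0 risen. 1 gene was called risen without dKO DMSO replicate 1, and 1 without dKO MI-503 replicate 2. The median was -0.40 over the tested Hox genes, against -0.63 in WT. Falls of at least 2-fold were called for 4 of these Hox genes and for 879 of all 16921 genes tested. With a minimum count of 50 the order of the medians turned, to -0.44 in dKO and -0.35 in WT. Over the 20 members with a mean of at least 1 CPM the medians were -0.41 in dKO and -0.50 in WT. By position, 8 of 12 posterior genes fell (median -0.42), 7 of 14 central genes (median -0.30) and 2 of 5 anterior genes (median -0.42). Spearman's rho with paralog number was -0.15 over 31 genes. The comparison shares no library with MI-503 in WT, and 14 genes fell in both, which is 70% of those that fell in WT and 82.4% of those that fell in dKO. Over all genes tested the same shares were 60.4% and 76.9%.

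Hoxd13 had 163 and 166 counts in dKO DMSO and 27 and 37 in dKO MI-503, or 2.47 and 2.33 against 0.401 and 0.600 CPM (log2 fold change -2.27, SE 0.263, adjusted p = 5.66e-06). Hoxb9 fell from 9.37 and 7.71 to 2.43 and 2.22 CPM (-1.87, SE 0.129, adjusted p = 3.6e-08). These 2 posterior genes showed the largest falls in both genotypes among the 23 genes that reached a mean of 1 CPM in a group. Hoxd4 fell from 1.08 and 0.939 to 0.401 and 0.470 CPM (-1.21, SE 0.285, adjusted p = 0.0025). Hoxa6 fell from 2.41 and 3.03 to 1.93 and 1.48 CPM (-0.67, adjusted p = 0.0181), and lost the call without dKO DMSO replicate 2 (adjusted p = 0.141) and without dKO MI-503 replicate 2 (adjusted p = 0.115), each at -0.50. Hoxb3 (-0.29) lost it without either of the same libraries (adjusted p = 0.0894 and 0.0729), and Hoxb8 (-0.32) without dKO DMSO replicate 2 (adjusted p = 0.0665). Hoxb2 fell from 17.4 and 19.4 to 12.1 and 11.6 CPM (-0.63, adjusted p = 1.88e-05), and Hoxa9 from 106 and 108 to 74.2 and 73.4 CPM (-0.53, adjusted p = 5.08e-07). Hoxa13 went from 28.8 and 27.0 to 22.3 and 20.3 CPM (-0.39), and Hoxa11 from 44.7 and 45.8 to 35.6 and 34.8 CPM (-0.36), both past the threshold and both far smaller changes than in WT. Hoxb13, at 12.5 and 14.7 before and 12.1 and 11.9 CPM after, did not pass (-0.18, SE 0.119, adjusted p = 0.232).

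**Figure D3:**
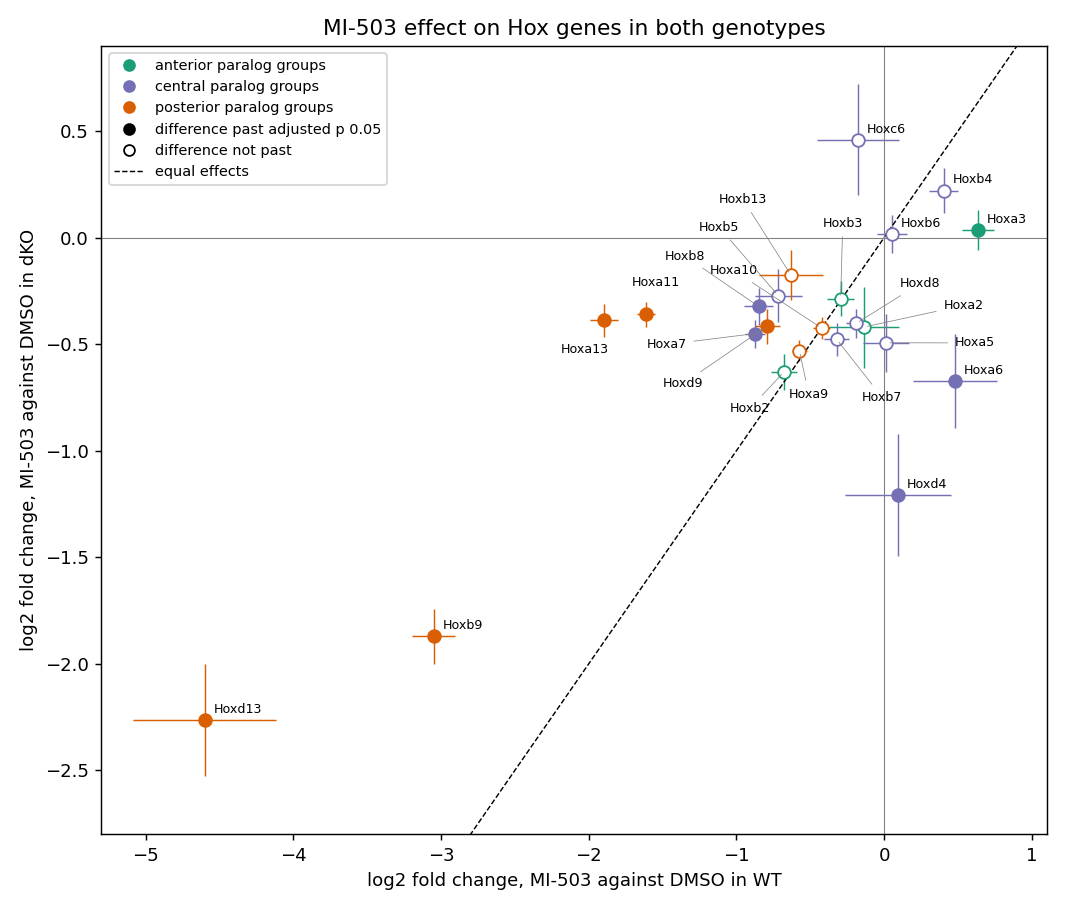
log2 fold change with MI-503 in WT (horizontal axis) and in the organoids labelled dKO (vertical axis) for the 23 Hox genes that reached a mean of 1 CPM in at least 1 group, with bars of 1 SE. Colours mark anterior, central and posterior paralog groups, filled points are genes whose difference between the genotypes passed the test, and the dashed line marks equal effects. Hoxd13, Hoxb9, Hoxa13 and Hoxa11 lie to the left of the line, with larger falls in WT, and Hoxa3, Hoxa6 and Hoxd4 lie to its right.

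The difference of the MI-503 effects, tested as an interaction, passed for 14 of the 31 genes. It was positive, meaning a smaller fall or a larger rise in dKO, for 11 genes and negative for 3, while 24.8% of all genes tested had a positive and 22.0% a negative difference past the threshold. The median was 0.38 over the tested Hox genes and 0.02 over all genes. With a minimum count of 50, a filter that removes sparsely read genes, the median turned to -0.052, and 6 were positive and 5 negative. The share of positive calls over all genes, 52.9%, fell to 37.2% with library size only and to 42.7% with no filter, and 6 and 5 Hox genes were then negative. The negative calls gained with library size only were Hoxa5 (-0.67, adjusted p = 0.0184), Hoxb7 (-0.32, adjusted p = 0.0333) and Hoxd8 (-0.37, adjusted p = 0.00556), and Hoxa5 was gained with RLE size factors (-0.54, adjusted p = 0.0463). Without dKO MI-503 replicate 2, 5 Hox genes were negative. Of the 12 posterior genes 8 were positive and 0 negative (median 1.21, or 1.20 with genes at 0 set at their bound), of the 14 central genes 3 were positive and 2 negative (median -0.10), and of the 5 anterior genes 1 was negative (median 0.01). Among members with a mean of at least 1 CPM, 4 of 7 posterior genes were positive (median 0.46), 2 of 9 central genes were positive and 1 negative (median -0.16), and 1 of 4 anterior genes was negative (median -0.14). The median over these 20 was 0.03, close to that over all genes.

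Hoxa13 and Hoxa11 gave the differences with the smallest adjusted p, 1.51 (SE 0.122, adjusted p = 3.98e-07) and 1.25 (SE 0.0828, adjusted p = 6.61e-08) on the log2 scale. Hoxb9 differed by 1.18 (SE 0.201, adjusted p = 0.000277) and Hoxd13 by 2.33 (SE 0.655, adjusted p = 0.00972). The Hoxd13 difference rests on few reads in WT MI-503, and without WT MI-503 replicate 1 it was 1.59 with an adjusted p of 0.101. Hoxb8 differed by 0.53 and Hoxa7 by 0.43. Negative differences were found for Hoxd4 (-1.30, adjusted p = 0.032), Hoxa6 (-1.15, adjusted p = 0.0174) and Hoxa3 (-0.60, adjusted p = 0.00377). Hoxd4 lost the call in DESeq2 (-1.33, adjusted p = 0.103) and without WT DMSO replicate 2 or replicate 1 of WT MI-503, dKO DMSO or dKO MI-503 (adjusted p from 0.0813 to 0.211). Hoxa6 lost it without WT MI-503 replicate 1 (-0.70, adjusted p = 0.165) or dKO DMSO replicate 2 (adjusted p = 0.059). Hoxd9 (0.38, adjusted p = 0.0189) lost it with library size only (0.22, adjusted p = 0.161), with no filter, with a minimum count of 50 and without any of 4 single libraries, WT DMSO replicate 2, WT MI-503 replicate 1, dKO DMSO replicate 1 and dKO MI-503 replicate 1 (0.28 to 0.35). For Hoxa9 and Hoxa10 the differences were 0.04 (SE 0.0686) and -0.00045 (SE 0.0795), neither past the threshold.

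Under MI-503, dKO organoids held more Hox RNA than WT organoids in all 3 position classes. Of the 31 tested 23 rose and 2 fell, while 26.6% of all genes tested rose and 28.5% fell, and the median was 0.97 against 0.01 over all genes. Of the posterior genes 11 of 12 rose, as did 8 of 14 central and 4 of 5 anterior genes. This comparison shares no library with dKO against WT in DMSO. Of the genes that rose in DMSO, 17 rose here too, which is 89.5% of those in DMSO and 73.9% of those under MI-503, while over all genes tested the shares were 54.8% and 61.2%. Hoxb13 differed by 3.80 (SE 0.166, adjusted p = 2.47e-10), Hoxd13 by 3.61 (SE 0.551, adjusted p = 8.01e-05) and Hoxa13 by 2.67 (SE 0.0922, adjusted p = 2.18e-11) on the log2 scale. Hoxb5 differed by 1.71, Hoxb6 by 1.32 and Hoxb3 by 1.19. Hoxb4 was again lower (-0.60, adjusted p = 0.000176). Hoxd8 (0.14) passed only with library size only (0.21, adjusted p = 0.0187) among the scalings. The Hoxa6 call (0.76, adjusted p = 0.019) was lost without replicate 2 of WT MI-503 (0.45, adjusted p = 0.177) and without replicate 1 of dKO MI-503 (0.55, adjusted p = 0.143).

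Set against untreated WT organoids, treated dKO organoids still held more of many Hox genes but less of some posterior ones. Of the 31 tested, 13 rose and 6 fell, while 34.3% of all genes tested rose and 37.4% fell. The share of higher calls over all genes was 47.8%, or 60.02% with library size only. Hoxb13 stood at 12.1 and 11.9 against 1.33 and 1.34 CPM (log2 fold change 3.17, SE 0.156, adjusted p = 3.22e-10), Hoxa3 at 11.7 and 10.4 against 3.76 and 3.49 CPM (1.61), Hoxb6 at 19.7 and 19.3 against 7.70 and 7.39 CPM (1.37) and Hoxa6 at 1.93 and 1.48 against 0.733 and 0.711 CPM (1.24). Hoxb9 stood at 2.43 and 2.22 against 9.08 and 9.66 CPM (-2.01, SE 0.129, adjusted p = 5.44e-09) and Hoxd13 at 0.401 and 0.600 against 1.16 and 0.827 CPM (-0.99, SE 0.294, adjusted p = 0.00783). At -0.73, the Hoxd13 call was lost when WT DMSO replicate 1 was left out (adjusted p = 0.0842), and likewise for replicate 1 of dKO MI-503 (adjusted p = 0.0745). Hoxa11 (-0.44), Hoxb2 (-0.32) and Hoxd9 (-0.24, adjusted p = 0.0192) were also lower. With library size only Hoxb2 was not called (-0.08, adjusted p = 0.415) and Hoxd9 turned to 0.0033 (adjusted p = 0.973). Under that scaling Hoxd8 (0.19, adjusted p = 0.0198) and Hoxd11 (1.02, adjusted p = 0.0433) were gained as risen. Hoxd9 was also not called in DESeq2 (adjusted p = 0.0748), with no filter, with a minimum count of 50, with only the groups compared, or without WT DMSO replicate 2 or dKO MI-503 replicate 2 (adjusted p from 0.0671 to 0.119).

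The Hoxc cluster was sparsely read, and its members Hoxc8, which is central, and Hoxc9 and Hoxc13, which are posterior, had few or no reads in some groups. Hoxc8 had 20 and 29 counts in WT DMSO, 0 and 0 in WT MI-503, 28 and 25 in dKO DMSO, and 19 and 24 in dKO MI-503. Against a floor of 3 counts over the group, it was at least 17.2-fold lower with MI-503 in WT, and at least 14.2-fold higher in dKO than in WT under MI-503. Hoxc9 had 12 and 10, 0 and 0, 35 and 40, and 8 and 13 counts in the same order, at least 7.71-fold lower with MI-503 in WT. Reads of both genes were thus missing only from the 2 WT MI-503 libraries, and the interaction test passed for both (adjusted p = 0.000259 for Hoxc8 and 0.0203 for Hoxc9). The Hoxc9 interaction was not called without WT MI-503 replicate 1, WT MI-503 replicate 2 or dKO MI-503 replicate 2 (adjusted p from 0.0598 to 0.0948), and its fall in dKO (-1.73, adjusted p = 0.00313) not without dKO MI-503 replicate 1 (adjusted p = 0.0529).

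Hoxc13, a gene of hair and nail differentiation, had 42 and 68 counts in WT DMSO, 3 and 2 in WT MI-503, 1 and 2 in dKO DMSO, and 0 and 0 in dKO MI-503. It passed the filter only through the WT DMSO libraries, which also stand apart in chaperone genes. It was 41.3-fold lower in dKO than in WT in DMSO, with a 95% counting interval of 13.8 to 203, and at least 38.8-fold lower in dKO MI-503 than in WT DMSO. With 3 counts before and 0 after, the MI-503 effect in dKO has no fold. Its call in dKO against WT under MI-503 (5 counts against 0, adjusted p = 0.0497) was lost in DESeq2 (adjusted p = 0.0536), with library size only and with each of the 8 libraries left out in turn. Hoxc4 and Hoxc6 passed in none of the 6 comparisons with the settings used throughout, with 3 to 17 and 40 to 92 counts a library. By edgeR with only the groups compared, Hoxc4 was called higher in dKO under MI-503 (1.28, adjusted p = 0.0352). Fits with 1 library left out called both genes in some comparisons.

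**Figure D4:**
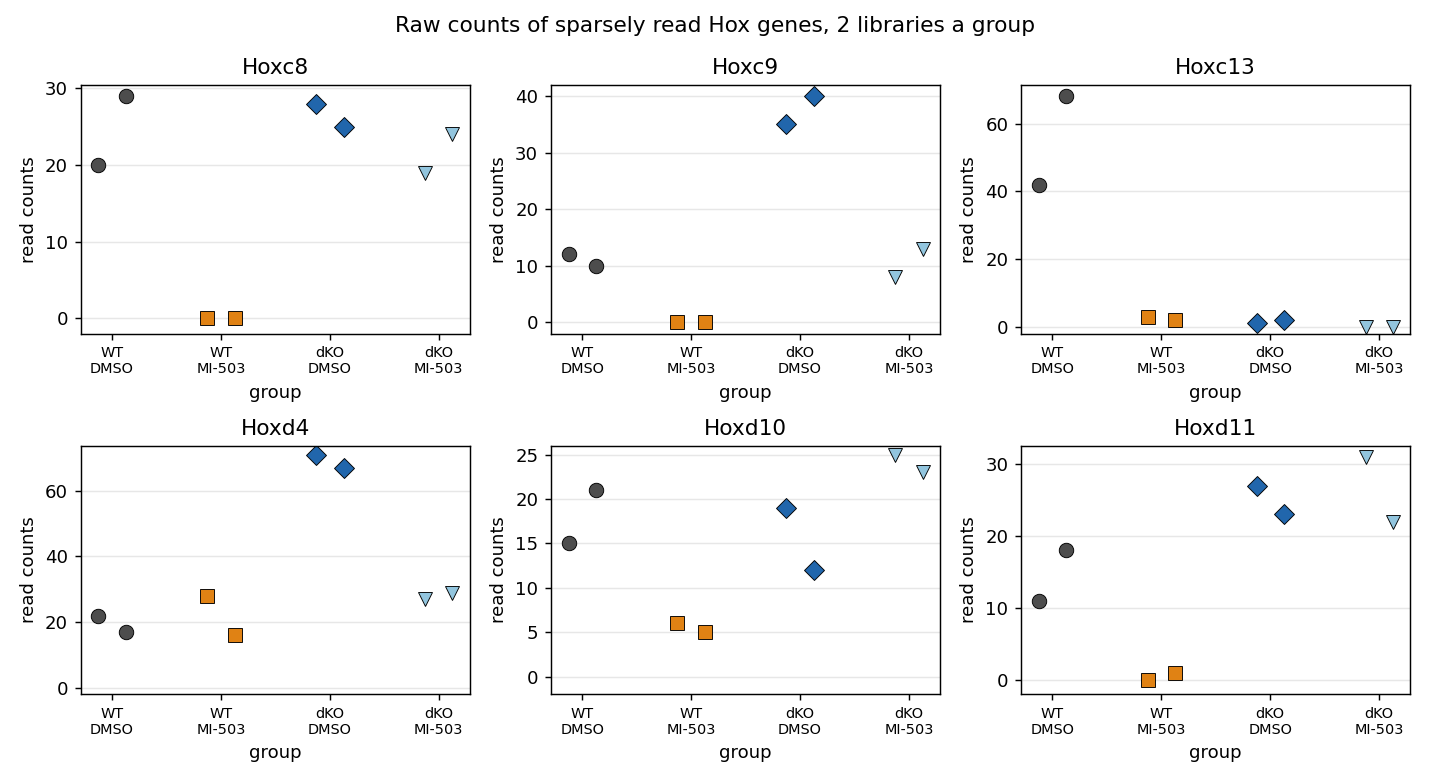
Raw read counts of 6 sparsely read Hox genes in the 4 groups, with 1 point for each library. Hoxc8 and Hoxc9 are at 0 in both WT MI-503 libraries, Hoxd11 is at 0 and 1 there, Hoxc13 is above 3 counts only in WT DMSO, and Hoxd4 is highest in dKO DMSO.

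In Hoxd, the sparse Hoxd11, a gene of the forearm and kidney, had 11 and 18 counts in WT DMSO, 0 and 1 in WT MI-503, 27 and 23 in dKO DMSO, and 31 and 22 in dKO MI-503. It was 30.5-fold lower with MI-503 in WT (95% counting interval 5.06 to 1246), and 52.7-fold higher in dKO than in WT under MI-503 (9.05 to 2119). In dKO it did not pass with MI-503 (log2 fold change 0.17, SE 0.39). Hoxd10 had 15 and 21, 6 and 5, 19 and 12, and 25 and 23 counts, with a positive interaction (2.47, SE 0.65, adjusted p = 0.00657). The RefSeq spans of Hoxd10 and Hoxd11 overlap, so these 2 are not independent. Hoxd3 had 14 and 25, 5 and 12, 40 and 35, and 23 and 12 counts and passed in none of the 6 comparisons with the settings used throughout. By edgeR with no filter and with only the groups compared, Hoxd3 was called fallen with MI-503. The adjusted p was 0.0327 and 0.0408 in WT, and 0.0204 and 0.0354 in dKO.

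The members of paralog group 13 thus stood in different positions although they share a place at the 5' end. Hoxb13 followed the genotype, Hoxa13 and Hoxd13 were higher in dKO and lower with MI-503, and Hoxc13 was read above the floor of 3 counts a library only in WT DMSO. In group 9, Hoxb9 fell by 3.05 on the log2 scale with MI-503 in WT while Hoxa9 fell by 0.57 and Hoxd9 by 0.79. In group 4, Hoxa4 and Hoxb4 rose with MI-503 in WT while Hoxc4 and Hoxd4 did not pass.

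Of the 17 noncoding RNAs of the clusters 10 were tested, of which 4 rose and 1 fell in dKO in DMSO, 1 rose and 3 fell with MI-503 in WT, and 2 fell with MI-503 in dKO. Over all genes tested, 29.6% rose and 35.8% fell in dKO in DMSO, 35.2% rose and 33.7% fell with MI-503 in WT, and 29.1% rose and 26.5% fell with MI-503 in dKO. Hoxa11os, antisense to Hoxa11, rose in dKO in DMSO (log2 fold change 0.80), and did not pass with MI-503 in WT (0.21, adjusted p = 0.0828) where Hoxa11 fell. Hoxaas3 rose with MI-503 in WT from 0.619 and 0.529 to 1.61 and 1.70 CPM (1.52, adjusted p = 0.000181). Hoxb3os fell with MI-503 in both genotypes (-1.19 and -1.16). Without a stated strand setting, reads of a gene and its antisense partner cannot be told apart.

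The microRNA gene Mir196a-1 lies between Hoxb9 and Hoxb13, nearer to Hoxb9. Its mature product represses Hox messages, and the gene is shown because its counts differed between the genotypes. The seed, bases 2 to 8, is in capitals.
mmu-miR-196a-5p, chr11:96265187-96265208, plus strand: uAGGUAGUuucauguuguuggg
Its gene had 0 and 1 counts in WT DMSO, 1 and 0 in WT MI-503, 9 and 18 in dKO DMSO, and 18 and 22 in dKO MI-503. All 4 dKO libraries lay above all 4 WT libraries, as for Hoxb13 but not for the nearer Hoxb9. By edgeR, Hoxb9 did not differ past the threshold between untreated dKO and WT (-0.14, adjusted p = 0.309). Under MI-503 Hoxb9 was higher in dKO, by 1.04 on the log2 scale. For Mir196a-1 the ratio of dKO to WT in DMSO, 27 counts against 1, was 23.98 with a 95% counting interval of 3.95 to 982. Because Mir196a-1 was chosen for this difference, neither the ratio nor the separation of its libraries adds further support. PolyA libraries do not hold mature microRNA, so these reads come from longer transcripts over the gene. The paralogs Mir196a-2 in Hoxc and Mir196b in Hoxa, whose 5p products share the seed, were at 0 in all libraries.

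Of 8 tested genes of the TALE class, the cofactors that bind DNA with Hox proteins, 1 rose and 3 fell in dKO in DMSO, 3 rose and 5 fell with MI-503 in WT, and 3 rose and 4 fell with MI-503 in dKO. For 8 genes these counts stand beside the shares over all genes of 29.6% risen and 35.8% fallen in DMSO, 35.2% and 33.7% with MI-503 in WT, and 29.1% and 26.5% with MI-503 in dKO. Meis1, a known target of menin and KMT2A, fell from 33.9 and 35.7 to 11.7 and 12.0 CPM in WT (log2 fold change -1.55) and from 30.8 and 29.4 to 10.4 and 11.3 CPM in dKO (-1.47), a difference between genotypes of 0.08 (SE 0.1). Meis2 was lower in dKO in DMSO, at 77.1 and 78.4 against 182 and 190 CPM. Pbx3 fell by 0.96 in WT and by 0.26 in dKO, a difference of 0.71 (adjusted p = 6.74e-05). The Hox-like Cdx2, a gene of intestinal identity, rose in dKO in DMSO from 0.163 and 0.0661 to 1.64 and 1.29 CPM (3.65), while Cdx1, Cdx4, Gsx2 and Pdx1 had no read.

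Of 14 tested genes of retinoic acid signalling, which switches on Hox genes from the 3' end in the embryo, 10 rose and 2 fell in dKO in DMSO, 7 rose and 2 fell with MI-503 in WT, and 2 rose and 3 fell with MI-503 in dKO. The shares over all genes, for this list and those that follow, were 29.6% risen and 35.8% fallen in DMSO, 35.2% and 33.7% with MI-503 in WT, and 29.1% and 26.5% with MI-503 in dKO. Stra6, a retinol importer, rose by 2.14 in dKO in DMSO and by 1.53 with MI-503 in WT on the log2 scale. Crabp2 went the other way in dKO, at 5.05 and 5.06 CPM in WT DMSO and 0.273 and 0.673 in dKO DMSO. With MI-503 it measured 15.3 and 17.4 CPM in WT and 3.06 and 3.57 in dKO. Cyp26b1, which degrades retinoic acid, rose by 1.08 in dKO, and fell with MI-503 by 0.82 in WT and by 1.31 in dKO. Of 19 known regulators of Hox chromatin, 8 rose and 8 fell in dKO in DMSO, and with MI-503 4 rose and 11 fell in WT and 3 rose and 11 fell in dKO. Kmt2a fell with MI-503 by 0.60 in WT and by 0.32 in dKO, and Men1 rose by 1.08 and 0.57. The Polycomb gene Bmi1 fell from 110 and 114 to 30.7 and 31.6 CPM in WT (-1.85) and from 114 and 107 to 58.7 and 62.0 CPM in dKO (-0.88). Of 17 tested genes beside the clusters, 4 rose and 9 fell in dKO in DMSO, 8 rose and 7 fell with MI-503 in WT, and 7 rose and 6 fell in dKO. Snx10, beyond the Hoxa cluster, was lower in dKO (-3.58), where most Hoxa genes were higher. Evx1, next to Hoxa13, had no read, and Evx2, next to Hoxd13, had 2 counts in 1 library.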

How the data were processed

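The deposited file holds raw read counts per Ensembl gene for the 8 polyA RNA-seq libraries. The submitters' processing notes name STAR, and list GRCm38 and mm10 as builds. Which program counted the reads, on which strand and against which annotation release, the sources used here do not say. The other 32 of 40 samples were not analysed here. A reference table gave symbols for 53274 of 53465 identifiers, and 1 row with no identifier was dropped. The naming rule matches 39 genes, of which 1 is not reported here, although it entered the fit over all genes.

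Tests were run with edgeR 4.0.16 under R 4.3.3. Its filterByExpr (minimum count 10, minimum total 15) removed 36544 genes. TMM factors lay between 0.892 and 1.06. A model with 1 mean for each group was fitted over the 8 libraries (4 residual degrees of freedom), with a biological coefficient of variation of 5.14%. Each of 6 contrasts had a two-sided quasi-likelihood F test with Benjamini-Hochberg adjustment. The SE was derived from F as the absolute value of the log2 fold change divided by its root. With 2 libraries against 2, the smallest p of an exact permutation test is 0.33. The scripts were tested on simulated data. Intervals and floors cover counting error only.

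All members were named, with values per library where a group mean reached 1 CPM and tests for the largest changes, beside up to 4 genes of each list and Kmt2a, Kmt2c, Kmt2d and Men1. Values of sparsely read members, Pdgfra, Acta2, Mir196a-1 and the Evx genes were added after they were seen. The members, lists and position classes were chosen with earlier results of these data known. The alternatives were other size factors (RLE, or library size only), DESeq2 1.42.0, dropping the filter, a minimum count of 50, fitting only the groups compared, a block for the replicate number, and leaving out single libraries. Replicates differed beyond sampling noise, with a chi-square per degree of freedom of 5.19 to 13.3. A planned comparison of protein sequences was not run.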

Additional observations from a re-analysis of the deposited data

Results flagged for a closer look

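The MI-503 effect differed between the genotypes, by the interaction test of edgeR with Benjamini-Hochberg adjustment over all genes tested, in 14 Hox genes. The difference, dKO minus WT on the log2 scale, was positive for Hoxd13 (2.33), Hoxa13 (1.51), Hoxa11 (1.25), Hoxb9 (1.18), Hoxb8 (0.53), Hoxa7 (0.43) and Hoxd9 (0.38). It was also positive for the sparsely read Hoxd10 (2.47), Hoxd11 (4.79), Hoxc8 (7.50) and Hoxc9 (4.83). The values of Hoxc8 and Hoxc9, which had no read in WT MI-503, depend on the prior count and are no bound, and that of Hoxd11 rests on 1 read in that group. The difference was negative for Hoxa3 (-0.60), Hoxa6 (-1.15) and Hoxd4 (-1.30). Hoxa13 and Hoxa11 kept the call under every alternative run, while Hoxd13, Hoxd9, Hoxd4, Hoxa6 and Hoxc9 lost it under at least 1.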

How the results depend on the processing

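Of 119 calls of a gene in a contrast, 24 were lost under at least 1 alternative, and of the alternatives run on them 1676 kept the call, 72 lost it and 1 reversed: Hoxd9 in dKO MI-503 against WT DMSO was 0.0033 with library size only. In that contrast Hoxd9 stood at -0.24 with TMM, and the median over all genes moved by 0.24 with library size only. Why the 2 scalings differ was not tested. Scaling by library size only gave median log2 fold changes over the tested Hox genes of 0.96 for dKO against WT in DMSO, -0.46 for MI-503 in WT, 0.22 for the difference, 1.04 for dKO against WT in MI-503 and 0.57 for dKO MI-503 against WT DMSO, and a minimum count of 50, which tests fewer genes, gave 0.91, -0.35, -0.052, 0.81 and 0.44. Fallen Hox genes in DMSO were 1 under both of these. Positive differences were 6 with a minimum count of 50, and negative ones 6 with library size only and 5 with no filter or a minimum count of 50. In dKO against WT in MI-503, 1 Hox gene was fallen with library size only, DESeq2, a minimum count of 50, only the groups compared and each library left out, since the Hoxc13 call was lost. Leaving out single libraries gave 0 to 1 risen genes for MI-503 in dKO and 2 to 5 negative differences. Calls were gained as well. Several alternatives called Hoxd9 in dKO against WT in DMSO, Hoxd3 with MI-503 in both genotypes, and Hoxa5 and Hoxd8 in the difference. In single libraries a count of 0 allows up to 3 counts.

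Replicate numbers are shared by the groups, but the deviations of same-numbered libraries correlated at only -0.0886 to 0.0585. No large shift shared by same-numbered libraries was seen. Whether the numbers pair the samples cannot be told from this, since a shared culture need not leave a large shift. With a replicate block 19 Hox genes rose and 2 fell in DMSO, 3 rose and 20 fell with MI-503 in WT, 0 rose and 17 fell with MI-503 in dKO, and 11 differences were positive and 3 negative, the counts without the block.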
